A study of Sus scrofa with 12 samples.

Results

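RYR1 is the ryanodine receptor of skeletal muscle, and this account covers the RNAs listed along its locus and the contacts of that locus in pig muscle. The RNAs are those of 4 GRID-seq libraries whose interval overlaps RYR1, which the RefSeq table of Sscrofa11.1 places on chromosome 6 from 47339759 to 47458457, a length of 118.699 kb. This rule gave 98 of the 2420 listed RNAs. Loops are those of 4 H3K27ac BL-HiChIP libraries with an anchor in the gene or within 5 kb of it, and there were 18 distinct loops at RYR1, against 178724 loop entries in all 4 lists together. The gene was chosen by its measured number of listed RNAs, so this number is given as a description.

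The ryanodine receptor is a very large calcium channel in the membrane of the sarcoplasmic reticulum, the calcium store of the muscle fibre. When the fibre is excited, the voltage sensor in the transverse tubule (CACNA1S and its partners) opens RYR1 by direct contact, calcium flows out to the myofibrils and the fibre contracts. Calcium pumps of the ATP2A family then return the calcium to the store, where CASQ1 binds it, and junctophilins hold the store and the tubule together.

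The tissue was longissimus muscle of male piglets aged 2 weeks, from Large White (LW), a commercial lean breed, and Meishan (MS), a local Chinese breed, with no treatment. Each breed had 2 libraries per assay, numbered as replicates 1 and 2. Whether the replicates of a breed came from different animals is not stated in the sources used here, so p-values measure only the spread between these libraries, which may be technical. GRID-seq ligates RNA to the DNA next to it in fixed nuclei and so lists chromatin-associated RNAs (caRNAs) together with the 1-kb DNA bins that each contacts. BL-HiChIP joins DNA ends that lie close in the nucleus and enriches those that carry H3K27ac, a mark of active promoters and enhancers.

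Summed over the listed RNAs, the depth was 8181721 and 9943666 reads for LW replicates 1 and 2 and 7172517 and 9381797 reads for MS replicates 1 and 2, of which MS replicate 1 was the shallowest library. Of 15 skeletal muscle markers, 11 had a listed RNA in every library. No marker of heart, endothelium, immune cells, smooth muscle or nerve was listed in any library. Of 6 fibroblast markers the collagens were listed, 3 in each library but MS replicate 1, which had 2. Their summed level was 1262 and 1079 RPM, reads per 1000000 listed reads of the library, in LW and 923 and 1495 in MS. Of 5 adipocyte markers, PLIN4 was listed in both MS libraries, at 148 and 136 RPM, and in neither LW library. These are bulk samples, in which fewer cells of a type and less RNA per cell cannot be told apart.

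RYR1 was listed as a row of short RNAs along the gene. Both LW libraries had 27 RNAs there, MS replicate 1 had 18 and MS replicate 2 had 26. MS replicate 1 stood below the other 3 libraries, and MS replicate 2 lay 1 RNA below both LW libraries. All 98 RNAs were on the plus strand, which sets the start of RYR1 at its lower coordinate. Among the RNAs listed in a library their share was 4.73% and 3.96% in LW, against 3.47% and 4.01% in MS.

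Most of these RNAs carried a number in place of a name. The authors' lists call an RNA by a gene symbol, by an Ensembl identifier or, for a transcript outlined from the reads of that library, by Tx and a number. At RYR1 25, 25, 17 and 24 RNAs were such outlined transcripts in LW replicates 1 and 2 and MS replicates 1 and 2, which was 22.3%, 18.4%, 28.8% and 30.8% of all outlined transcripts of these libraries. The others carried Ensembl identifiers, ENSSSCG00000042985 in all 4 libraries and ENSSSCG00000046809 in every library but MS replicate 1. No RNA was listed under the symbol RYR1. The Tx numbers run in genome order, from Tx.496 to Tx.526 in LW replicate 1 and from Tx.238 to Tx.266 in MS replicate 1. Counting every number of such a run, listed or not, gave 31 and 27 transcripts in LW and 29 and 30 in MS, of which 6, 2, 12 and 6 were not listed. The run of MS replicate 1 was as long as those of the other libraries, while fewer of its numbers were listed.

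Few other genes were listed this way. Between 469 and 576 genes per library had an RNA, the median gene had 1, and the gene with the next largest number after RYR1 had 7, 6, 4 and 7 in LW replicates 1 and 2 and MS replicates 1 and 2. Likeness of the numbers of RNAs to RYR1 was measured as the Euclidean distance over the 4 libraries. The nearest gene was SSH2, a phosphatase that acts on the actin-severing protein cofilin, with 4 and 5 RNAs in LW and 2 and 7 in MS (distance 40.4). It was followed by the chromatin regulator KMT2E (7 and 6 in LW, 2 and 2 in MS), the giant sarcomere protein gene TTN (4 in each library), TTC23 (5 and 4 in LW, 3 and 3 in MS) and the junctophilin JPH2 (4 and 3 in LW, 4 and 4 in MS). Per 100 kb of gene, RYR1 had 20.6 RNAs over the mean of the libraries, against 1.68 for SSH2, 3.25 for KMT2E, 1.46 for TTN, 2.97 for TTC23 and 5.00 for JPH2.

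**Figure D1:**
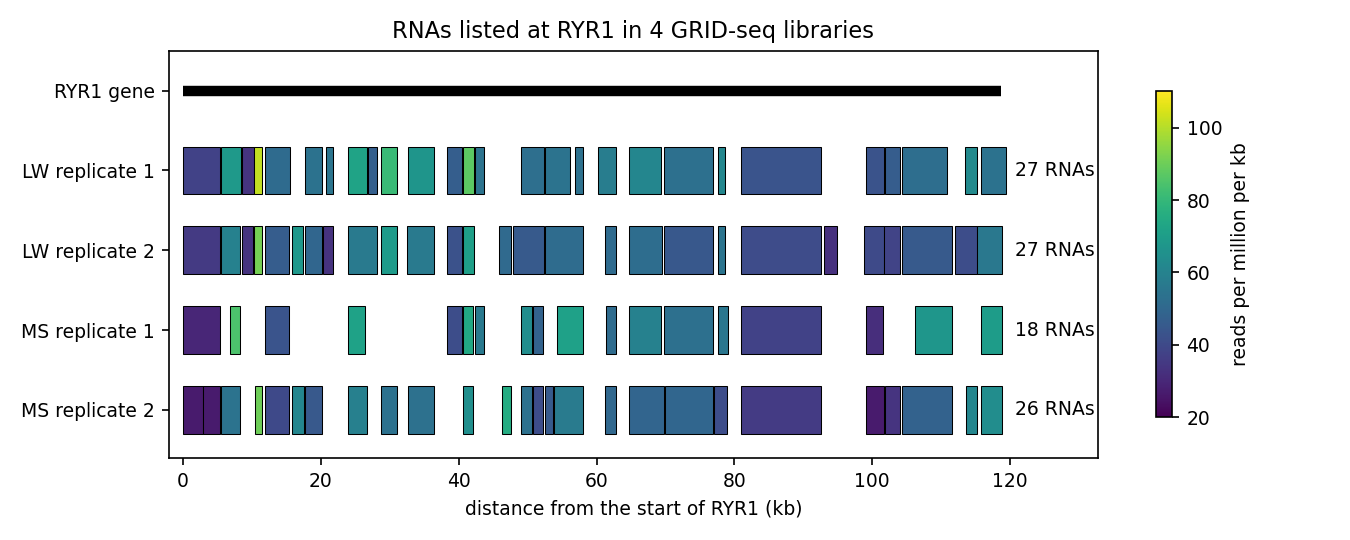
RNAs listed along RYR1 in each GRID-seq library, as boxes placed by kb from the start of the gene, with colour giving the level in RPM per kb. The row of MS replicate 1 has 18 boxes with the widest gaps, while the other libraries have 26 or 27 boxes that mostly lie at the same places.

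The RNAs tiled the gene from end to end. The first began within 7 bases of the annotated start in all 4 libraries, at 5 bases inside or 4 bases before it in LW and at 5 bases inside or 7 bases before it in MS. The last ended 707 and 85 bases past the annotated end in LW and 82 bases past it in both MS libraries. Together they covered 84.0 and 92.6 kb of RYR1 in LW and 61.7 and 80.8 kb in MS, or 70.7%, 78.0%, 51.9% and 68.0% of the gene. The RNAs of a library did not overlap each other. The gaps between them were mostly short, with medians of 641 and 462.5 bases in LW and 1951 and 602 in MS, and the largest was 11965 bases in MS replicate 1 against 3820 to 6521 elsewhere.

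Most RNAs were short. Their median length was 2593 and 2762 bases in LW and 2497 and 2447.5 in MS, the shortest was 1034 bases and the longest, ENSSSCG00000042985, was 11594 bases in each library. The RefSeq table used here gives no exons, so whether an RNA lies on exons or introns was not analysed here.

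The same stretches of RYR1 were outlined again in other libraries. Of the 98 RNAs, 93 had an RNA in another library that shared at least 50% of both lengths, and 56 had one in all of the other 3. At 90% of both lengths these numbers were 73 and 20. These shares differed between pairs of libraries, both within and across the breeds. Of the RNAs of MS replicate 1, 88.9% were outlined alike in LW replicate 1, 83.3% in LW replicate 2 and 88.9% in MS replicate 2. Of the RNAs of LW replicate 1, 88.9% were outlined alike in LW replicate 2, but 74.1% in MS replicate 2 and 59.3% in MS replicate 1. Of the RNAs of MS replicate 2, 61.5% were found in MS replicate 1, while 76.9% and 80.8% were found in LW replicates 1 and 2.

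Linked through such overlaps, the RNAs formed 34 stretches of the gene. An RNA in all 4 libraries was found for 14 stretches, in 3 libraries for 7, in 2 for 8 and in 1 for 5. Of the 7 stretches in 3 libraries, 6 were absent from MS replicate 1. Stretches of both LW libraries and no MS library numbered 3, and stretches of both MS libraries and no LW library numbered 2. Part of this is a difference in outline, since Tx.512 and Tx.604 of LW, from 47.9 to 52.3 kb, cover the 2 stretches of MS. Edges moved between libraries even where the stretch was the same, since of the 14 common stretches only 5 had starts and only 2 had ends within 20 bases in all 4 libraries.

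By bases, 47.3% of the gene (56.2 kb) was listed in all 4 libraries, 18.7% in 3, 7.93% in 2, 7.56% in 1 and 18.5% in none. Bases of both LW libraries alone were 3.70% of the gene and bases of both MS libraries alone were 0.22%. LW replicate 2, the deepest library, had the most bases of its own, at 5.49%.

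The stretches missing from MS replicate 1 were not all weak ones in the libraries that list them. A library lists an RNA from 441 and 446 reads upward in LW and from 432 and 455 upward in MS, taken as the smallest number listed. The reads that a missing stretch would have had were worked out from its level in the libraries that list it, its length and the total reads of the library. This assumes the same level in the library that lacks it, which these lists cannot show. MS replicate 1 had no RNA linked to 16 of the 34 stretches. The bases of 3 of these were mostly covered by RNAs outlined differently, and the other 13 had no listed base, 11 of which would have been above its limit. The 6 stretches that it alone lacked would have had between 652 and 1668 reads. LW replicate 1 had no listed base in 3 stretches, LW replicate 2 in 1 and MS replicate 2 in 6, all of which would have been above the limit. Another 4, 6 and 2 stretches were not linked there although other RNAs covered most of their bases. The part of further selection steps in this was not tested.

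**Figure D2:**
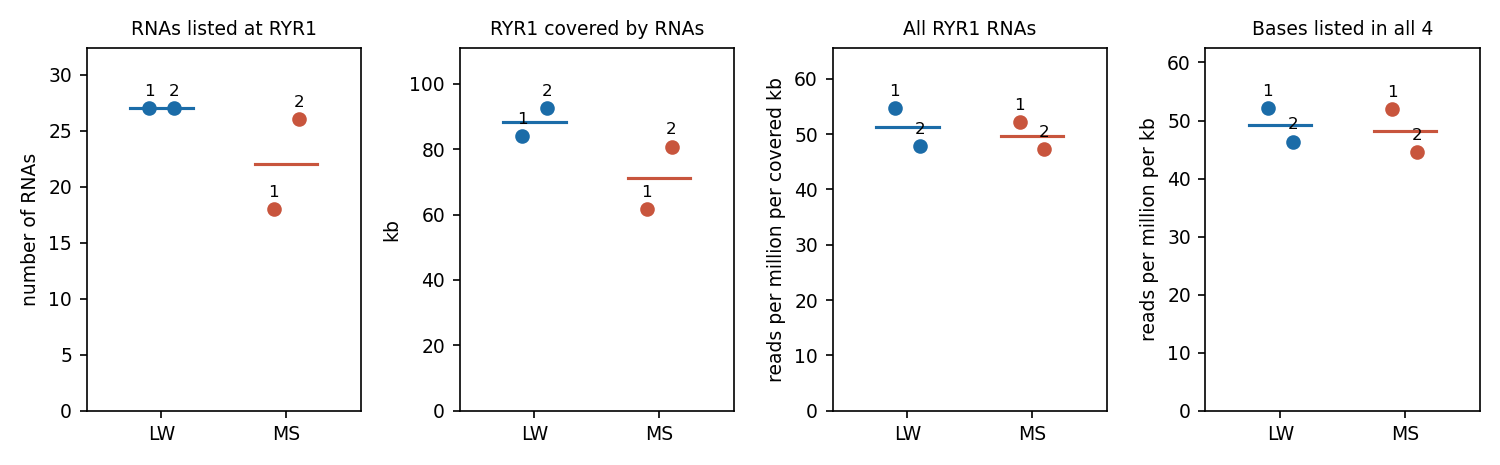
Number of RNAs, kb of RYR1 covered, RPM per covered kb, and RPM per kb on the bases listed in all 4 libraries, with 1 point per library and a line at the mean of each breed. MS replicate 1 is lowest for number and cover, while in the panels per kb the replicate 1 library of each breed lies above its replicate 2.

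RYR1 held more RNA reads in LW than in MS in sum, but not per listed base. The sums were 37557 and 43957 reads in LW and 23068 and 35791 in MS, or 4590, 4421, 3216 and 3815 RPM. The LW libraries lay above both MS libraries, and MS replicate 1 was lowest. After TMM normalization LW was higher by 0.32 on the log2 scale (SE 0.15, n = 2 libraries per breed), with an adjusted p of 0.120 in edgeR's quasi-likelihood test with Benjamini-Hochberg adjustment over 321 genes, so RYR1 was not called. Of all 321 genes listed in the 4 libraries 84.1% were called, 42.4% higher in LW and 41.7% higher in MS, and the libraries of the breeds did not overlap with LW higher in 46.7%. RYR1 thus belonged to the minority that was not called, and its SE was the 18th largest of 321, against a median SE of 0.02.

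The size of the difference depended on MS replicate 1. Without that library the difference was 0.10 (adjusted p = 0.131 in edgeR), and without MS replicate 2 it was 0.52 and called (adjusted p = 0.0055 in edgeR). With library totals in place of TMM it was 0.36 and also called (adjusted p = 0.014 in edgeR). That fit pooled the spread wholly over genes, with 642 degrees of freedom for RYR1 against 3.47 in the main fit.

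Per listed base the breeds overlapped. The level was 54.7 and 47.8 RPM per covered kb in LW and 52.2 and 47.2 in MS. On the 56.2 kb listed in all 4 libraries the level was 52.1 and 46.3 in LW, against 51.9 and 44.5 in MS, so the breeds overlapped again, and replicate 1 lay above replicate 2 in each breed. The log2 difference on these bases was 0.01 (SE 0.04, adjusted p = 0.878 in edgeR), an alternative added after the data were seen. They held 63.8% and 58.9% of the RYR1 reads in LW, and 90.7% and 65.5% in MS. Both measures leave out bases that a library does not list. They therefore cannot show whether the level over the whole gene was alike.

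The level was also fairly even along the gene. Over 10 equal parts of RYR1 it ran from 43.3 to 69.0 RPM per covered kb in LW replicate 1, from 39.1 to 59.6 in LW replicate 2, from 37.6 to 71.7 in MS replicate 1 and from 35.6 to 65.7 in MS replicate 2. The part from 83.1 to 95.0 kb was the lowest in each library. The last part, at 54.8 and 47.3 in LW and 68.1 and 55.3 in MS, was above the first in each library, at 51.3 and 46.6 in LW and 41.1 and 42.5 in MS.

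Among single stretches, the strongest lay 10.4 to 11.4 kb from the start. It was listed as Tx.499 in LW replicate 1 at 102 RPM per kb, as Tx.593 in LW replicate 2 at 91.0 and as Tx.347 in MS replicate 2 at 90.1, and was not listed in MS replicate 1. The stretch at the start of the gene (Tx.496, Tx.590, Tx.238 and Tx.344) was among the weaker ones, at 37.9 and 35.3 in LW and 29.5 and 26.4 in MS. Here the LW libraries lay above the MS libraries. The stretch at the end of the gene (Tx.526, Tx.616, Tx.266 and Tx.373) went the other way, at 53.9 and 56.0 in LW and 69.3 and 63.8 in MS. Of the 14 stretches listed in all 4 libraries the LW mean was higher in 8, the breeds did not overlap with LW higher in 4 and with MS higher in 2. Adjacent stretches of 1 gene are not independent, and these counts have no test. Over all 321 genes tested, the breeds did not overlap with LW higher in 46.7%, on TMM-normalized reads per gene. The share with MS higher is not given here.

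ENSSSCG00000042985 is the only RNA of RYR1 with the same outline in all 4 libraries. It spans chromosome 6 from 47420686 to 47432279, which is 80.9 to 92.5 kb from the start of RYR1. The LW libraries held 4105 and 4661 of its reads and the MS libraries 3127 and 3870, or 502, 469, 436 and 413 RPM. Both LW libraries lay above both MS libraries. LW was higher by 0.16 on the log2 scale (SE 0.03), with an adjusted p of 0.0099 in edgeR's quasi-likelihood test over 308 RNAs that carry the same name in all 4 libraries, of which 86.7% were called. This comparison was also added after the data were seen.

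Genes that work with RYR1 were mostly called, as most genes were. Of 41 genes of excitation-contraction coupling, a list chosen for this work that holds voltage sensor, junction, store and pump genes, 18 and 18 had a listed RNA in LW and 16 and 17 in MS, and 15 had one in all 4 libraries. Of these 15, 13 were called at an adjusted p under 0.05 in edgeR, 8 higher in LW and 5 higher in MS. That share equals 86.7%, beside 84.1% of all genes tested. The median log2 difference was 0.21 for the list and 0.01 for all genes.

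The largest differences were toward LW. SRL, a calcium-binding protein of the store, had 44568 and 34817 reads in LW and 12705 and 15120 in MS, a log2 difference of 1.36 (SE 0.19, adjusted p = 0.0052 in edgeR). CACNG1, a subunit of the voltage sensor, was higher by 1.18 (SE 0.02) and TMEM38A, a cation channel of the store, by 1.12 (SE 0.02). The calcium pump ATP2A2, the slow-fibre form, had 22327 and 24257 reads in LW and 10976 and 12797 in MS, a log2 difference of 0.81 (SE 0.02). Smaller differences toward LW were called for SLN, a small inhibitor of the pumps (0.43), CASQ1 (0.42), BIN1, which shapes the transverse tubule (0.42), and JPH2 (0.21).

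Other partners were higher in MS. The fast-fibre calcium pump ATP2A1 had 17748 and 19200 reads in LW and 22680 and 27137 in MS, a log2 difference of -0.59 (SE 0.01). HRC, a calcium-binding protein of the store, differed by -0.32, and the junctophilin JPH1 by -0.28. CACNA1S, the voltage sensor that opens RYR1, differed by -0.07 (SE 0.02, adjusted p = 0.020 in edgeR). STAC3, an adaptor of the voltage sensor, at 0.04 and JSRP1, a junction protein, at -0.19 were not called (adjusted p = 0.149 and 0.104 in edgeR). RYR1 at 0.32 lay inside the range of its partners and had a larger SE than all of them but SRL.

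**Figure D3:**
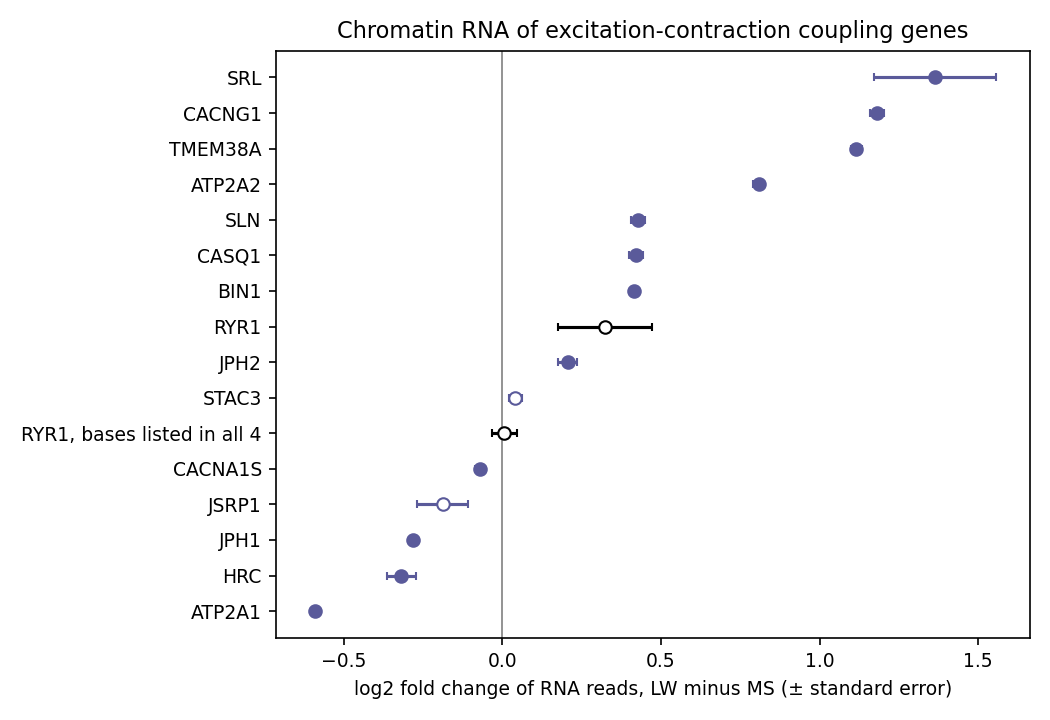
Log2 difference in RNA reads, LW minus MS, with its SE, for RYR1 (all listed RNAs, and the bases listed in all 4 libraries) and 14 of the 15 excitation-contraction coupling genes listed in all 4 libraries. Filled points were called at an adjusted p under 0.05 in edgeR, and the open points are RYR1 in both forms, STAC3 and JSRP1.

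RYR1 RNAs stayed on and around their own gene. The authors' lists give each RNA a background-corrected signal on 1-kb bins, taken here from its values to be relative to the reads of that RNA. The signal is smooth along neighbouring bins. It comes in unbroken runs of bins, here called patches, that rise to a peak and fall off, and no patch of a RYR1 RNA was shorter than 23 bins. Over all RNAs the lower quartile of the patch length was 23 bins and the median was 28 bins in each library. A patch of 23 bins is therefore close to the finest step of these lists, and bins inside it are not separate measurements.

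The 98 RYR1 RNAs had 35 and 33 patches in LW and 19 and 34 in MS. Every RNA had a patch on its own body, with a median width of 40 and 48 bins in LW and 33 and 37 in MS. These own patches held 98.5% and 98.7% of the RYR1 RNA signal in LW and 99.7% and 98.3% in MS. For 21 and 24 RNAs in LW and 17 and 21 in MS the own patch was the only one. No RYR1 RNA had a bin on another chromosome in any library, and the farthest bin lay 315 kb from its RNA.

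In the window that the study calls local, up to 10 kb beyond the RNA, lay 92.3% and 87.9% of the RYR1 signal in LW and 94.8% and 92.5% in MS (mean over the 4 libraries 91.9%, with an SD within breeds of 2.5 percentage points, n = 2 per breed). Both MS libraries lay above both LW libraries, by a small margin between MS replicate 2 and LW replicate 1. With 2 libraries per breed an exact permutation test of this share cannot give a p below 0.333. For an RNA of median length the whole window, with 10 kb on each side, is close in width to the shortest patches, so this share is partly set by the smoothing. Within 50 kb lay 98.4% and 98.3% in LW and 99.7% and 98.7% in MS, again without overlap. Counted as bins, which gives weak edges full weight, the local share was 40.0% and 38.0% in LW, against 54.5% and 47.6% in MS, also without overlap.

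The reach was set beside that of RNAs with similar numbers of reads. The median RYR1 RNA had 95.5% and 93.4% of its signal within 10 kb in LW and 97.6% and 96.1% in MS. The other RNAs of the same library inside the range of reads of RYR1 RNAs had medians of 97.8% and 93.8% in LW, against 97.8% and 95.4% in MS (295, 358, 234 and 329 RNAs). The median distance to the farthest bin was 24.9 and 29.8 kb for RYR1 RNAs in LW, above the 17.9 and 24.6 kb of those others, and 17.9 and 19.6 kb in MS, below their 18.8 and 22.2 kb. No test was made of these differences. All of those other RNAs but 2 in MS replicate 2 also had no bin on another chromosome. Across the RYR1 RNAs of a library, those with more reads had more bins (Spearman's rho 0.75 and 0.63 in LW, 0.64 and 0.67 in MS), a description over 18 to 27 RNAs that share a gene and a library.

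Patches apart from the RNA numbered 8 and 6 in LW and 1 and 8 in MS, and held 1.47% and 1.35% of the signal in LW and 0.31% and 1.72% in MS. They lay inside RYR1 in 5, 1, 1 and 2 cases, counting patches that touch the gene, and outside it in 3, 5, 0 and 6. ENSSSCG00000042985, the RNA with most reads, was the source of 3 and 4 of them in LW and of 1 and 3 in MS.

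The patches of ENSSSCG00000042985 came back at some places. Patches over LGALS4 and ECH1, and over SIRT2, NFKBIB and neighbouring genes, were seen in both LW libraries, 267 to 296 kb and 354 to 402 kb from the start of RYR1 in LW replicate 1 and 269 to 292 kb and 362 to 408 kb in LW replicate 2. The own patch ran without a break over ACTN4 in LW replicate 1, from 38.2 to 215 kb, and reached its start in LW replicate 2, at 154 kb. Separate patches over ACTN4 were seen in LW replicate 2 (160 to 236 kb, 9.24% of the signal of this RNA) and MS replicate 2 (132 to 191 kb, 10.1%). A patch that reached the start of RYR1 or the genes before it was seen in LW replicate 1 (−22.8 to 5.24 kb), MS replicate 1 (−8.76 to 27.2 kb) and MS replicate 2 (−45.8 to −11.8 kb). In MS replicate 1 neither the own patch, which ended at 134 kb, nor the separate patch reached ACTN4. The farthest bins of this RNA were 309 and 315 kb away in LW and 88.7 and 138 kb in MS, and its local share was 62.0% and 59.5% in LW, against 81.0% and 66.1% in MS. Here the breeds did not overlap, and the smallest exact permutation p that this design allows is 0.333. The share of all RNAs that do the same was not counted here. This RNA also had more reads in LW, and the part of its reads in its reach was not tested.

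Other RYR1 RNAs with patches outside the gene were Tx.518 in LW replicate 1 (203 to 232 kb, ACTN4 and CAPN12), Tx.612 in LW replicate 2 (332 to 355 kb), and Tx.364, Tx.365 and Tx.370 in MS replicate 2 (ACTN4, CAPN12 and EIF3K). Tx.518 and Tx.365 belong to the same stretch of RYR1.

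Within the own patch the peak lay toward the end of the RNA. Its median distance past the midpoint of the RNA was 1.24 and 1.14 kb in LW and 1.06 and 1.17 kb in MS, and it lay past the midpoint for 26 of 27, 26 of 27, 18 of 18 and 25 of 26 RNAs. More signal lay beyond the 3′ end of the RNA than before its 5′ end for 97 of the 98, the exception being Tx.593 in LW replicate 2. The side of higher coordinates also held more signal for 77.8% to 80.3% of other plus-strand RNAs, and for 97.3%, 97.9%, 95.2% and 84.0% of the other outlined transcripts on the plus strand, the RNAs most like those of RYR1. Among minus-strand RNAs, for which that side is the 5′ side, the share was 50.0% to 58.6%. The shift of RYR1 was about the width of 1 bin.

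Few RNAs of other genes were listed on RYR1. On its 120 bins 7 and 9 such RNAs had signal in LW and 7 and 10 in MS, and their patches covered 114, 120, 109 and 117 bins. They held 0.07% and 0.21% of all signal on these bins in LW and 0.21% and 0.23% in MS, the rest being that of RYR1 RNAs. As the signal is taken here to be relative to the reads of each RNA, these shares do not compare amounts of different RNAs. Of 14 such RNAs, 3 were seen in all 4 libraries, among them TNNT3, the fast troponin T of the thin filament, and ENSSSCG00000048037.

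The RNA of ACTN4, a non-muscle alpha-actinin gene 35.4 kb past the end of RYR1, gave the largest signal in 3 libraries. Its signal on RYR1 was 1541 in LW replicate 2, with none in LW replicate 1, and 1304 and 834 in MS replicates 1 and 2. TNNT3 gave 613 and 333 in LW and 316 and 607 in MS, with patches between 44.2 and 104.2 kb in LW replicates 1 and 2 and MS replicate 1. Others among the 5 strongest RNAs of a library were ASPDH (144 and 290 in LW), MYBPC2, the fast myosin-binding protein C (89.7 in LW replicate 2, 173 and 190 in MS), PFKM, the muscle phosphofructokinase (372 in MS replicate 2), the spliceosomal RNA U4 (106 in LW replicate 1) and the sarcomere gene NEB (51.5 in LW replicate 1). ENSSSCG00000048037 gave 72.7 in MS replicate 1.

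Their summed signal did not differ beyond the spread between libraries. The sum was 1012 and 2538 in LW, against 1974 and 2305 in MS, so the breeds overlapped and LW replicate 1, without ACTN4, was lowest. After quantile normalization the log2 difference, LW minus MS, was -0.89 (SE 0.84), and both MS libraries then lay above both LW libraries, with an adjusted p of 0.663 in limma with Benjamini-Hochberg adjustment over 23039 genes. At adjusted p under 0.05 limma called 0 of these genes. An unadjusted p under 0.05 was reached by 3442 genes, which all had an absolute log2 difference above 2, and made up 14.9% of the genes tested, with 7.79% higher in MS. RYR1 was not among them. On the coupling list 11 of 41 genes were, 10 higher in MS and RYR2, the ryanodine receptor of heart, higher in LW, which is 26.8%. They included CACNA1S, at 24.0 and 1.26 in LW and 524 and 1599 in MS, and the list's median was -1.55 against -0.10 for all genes.

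RYR1 had between 3 and 11 H3K27ac loops per library, with more in LW. LW replicate 1 had 7 of 57028 listed loops and LW replicate 2 had 11 of 43282, while MS replicate 1 had 3 of 45061 and MS replicate 2 had 4 of 33353. The numbers did not overlap between breeds, with MS below LW. The share of all genes whose loop numbers do the same was not counted here. Over all genes the loop score before normalization was also higher in LW, with a median log2 difference of 0.44. Among genes with a loop the median number was 4 in LW replicate 1 and 3 in the others. Of these genes 71.6% and 88.4% in LW and 39.9% and 60.6% in MS had fewer loops than RYR1.

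The loop score of a gene is the sum of −log10 FDR over its loops. For RYR1 it was 27.2 and 59.1 in LW, against 11.07 and 26.0 in MS. These sums were higher in LW without overlap, as they were for 25.9% of 17650 genes tested. After the quantile normalization used for the test the breeds overlapped, at 4.44 and 5.82 in LW and 3.64 and 5.06 in MS on the log2 scale. The log2 difference was 0.78 (SE 0.85), with an adjusted p of 0.970 in limma with Benjamini-Hochberg adjustment. At adjusted p under 0.05 limma called 0 of 17650 genes, while 1102 genes, 6.24%, had an unadjusted p under 0.05, each with an absolute log2 difference above 1.5, and 3.69% were so with LW higher. RYR1 was not among them. Leaving out LW replicate 2 or MS replicate 1 took the difference to 0.09 or 0.07, and leaving out LW replicate 1 or MS replicate 2 took it to 1.55 or 1.44, in no case past adjustment.

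**Figure D4:**
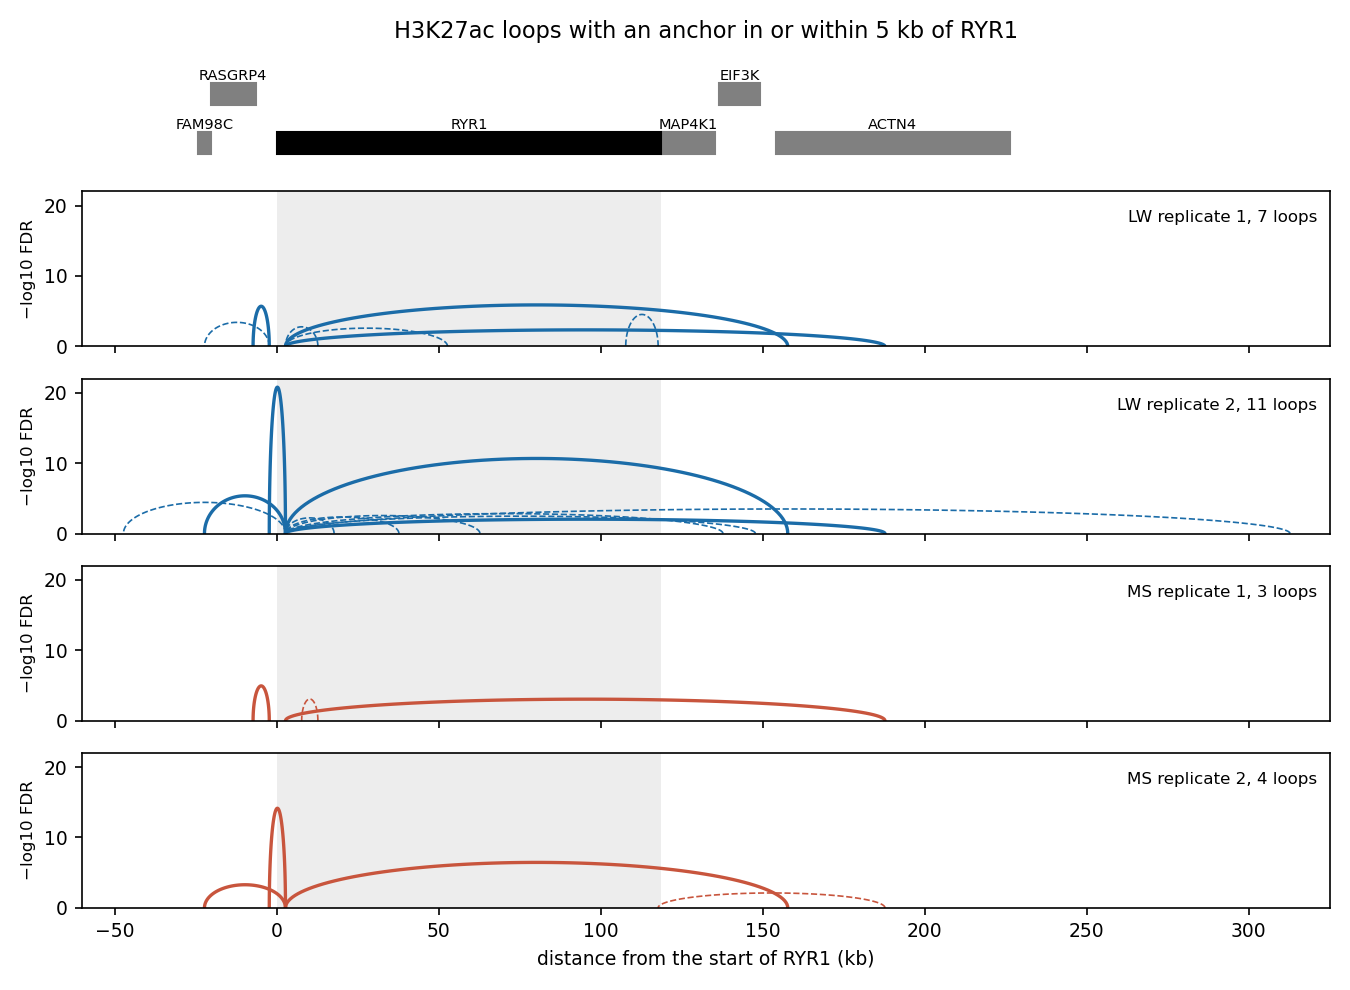
H3K27ac loops with an anchor in RYR1 or within 5 kb, 1 panel per library, as arcs over kb from the start of the gene with −log10 FDR as height. Solid arcs are loops called in at least 2 libraries and dashed arcs those called in 1. The arcs fan out from the start of the gene, and none is called in all 4 libraries.

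The loops left from the start of the gene. Of the 18 distinct loops 15 had an anchor at the start, and 13 had the same anchor, the 5-kb bin of chromosome 6 from 47340001 to 47345000, which is the first bin that lies wholly in RYR1. Both anchors lay on RYR1 in 8. Only 5 loops were called in at least 2 libraries, 2 of these in 3 libraries and none in 4, and all 5 were called in both breeds. Loops called in 1 library numbered 13.

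The loop called in 3 libraries with the strongest calls joined the start of RYR1 to ACTN4, 155 kb away. Its far anchor, from 47495001 to 47500000, was the first bin that lies wholly in ACTN4. The −log10 FDR of this loop was 5.88 in LW replicate 1, 10.7 in LW replicate 2 and 6.45 in MS replicate 2, and it was not called in MS replicate 1. A loop of 185 kb, to the bin from 47525001 to 47530000 within ACTN4 and LOC110260982, was called in LW at 2.34 and 2.03 and in MS replicate 1 at 3.05. The LW calls were close to the limit of the lists, an FDR of 0.01. Each library thus had 1 or both of these loops from the start of RYR1 to ACTN4. MS replicate 2 also had a loop of 70 kb to the bin from 47525001 to 47530000, called at 2.11. It came from the bin that holds the end of RYR1 and overlaps MAP4K1.

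The other loops shared by libraries were short. A loop of 25 kb from the start of RYR1 to the bin of FAM98C and RASGRP4 was called in LW replicate 2 at 5.35 and MS replicate 2 at 3.28. A loop between neighbouring bins across the start was the strongest of all, at 20.8 in LW replicate 2 and 14.1 in MS replicate 2. A loop joined the bin at the higher-coordinate edge of RASGRP4 to the bin that holds the start of RYR1. It was called in LW replicate 1 at 5.70 and MS replicate 1 at 4.94. Each of these 3 short loops was called in same-numbered libraries of both breeds and in neither of the other 2.

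Pairs of libraries showed the same. LW replicate 2 and MS replicate 2 shared 3 loops, 27.3% of the former and 75.0% of the latter, and the replicates 1 shared 2, 28.6% of the loops of LW and 66.7% of those of MS. The LW replicates shared 2 loops (28.6% and 18.2%) and the MS replicates shared none of their 3 and 4 loops. With a tolerance of 1 bin at both ends, 9 of the 18 loops were shared, and the LW replicates then shared 5. What the replicate numbers stand for is not stated in the sources used here, and their part in this was not tested.

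The loops of 1 library included 3 from the start of RYR1 to bins inside the gene in LW replicate 2, 15, 35 and 60 kb away, and 2 of 10 and 50 kb in LW replicate 1. LW replicate 2 also had loops from the start to PSMD8, a proteasome subunit gene, 50 kb before, to MAP4K1 and EIF3K, 135 and 145 kb on, and to HNRNPL, a splicing factor gene 310 kb away. All had a −log10 FDR of at most 4.42.

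The loops to ACTN4 and the RNA contacts with it were compared by library. At the first anchor in ACTN4, from 47495001 to 47500000, RYR1 RNAs had a signal of 954 from 1 RNA in LW replicate 1 and 1564 from 3 RNAs in MS replicate 2, and of 0 in the other libraries. At the second anchor in ACTN4, from 47525001 to 47530000, the LW libraries had 547 and 484, and MS replicates 1 and 2 had 0 and 84.3. The RNA of ACTN4 had a signal of 0 in both LW libraries at the start of RYR1, and of 246 and 226 in MS. LW replicate 1 and MS replicate 2 thus had both the loop to the first anchor in ACTN4 and RYR1 RNA signal there. MS replicate 1 had neither, and LW replicate 2 had the loop without the signal. In LW replicate 2 this anchor lay between patches of ENSSSCG00000042985, which ended at 154 kb and resumed at 160 kb. At the second anchor both LW libraries had the loop and the signal. There MS replicate 1 had the loop without the signal. MS replicate 2 had the signal without the loop from the start of RYR1, but with a loop from the end of RYR1 to this anchor. No test was made of this.

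Next to RYR1 lie RASGRP4, a Ras activator 6.42 kb before it, and MAP4K1, a kinase gene 0.08 kb after it. Neither had a listed RNA in any library. ACTN4 was listed in each, with 7361 and 7900 reads in LW and 7130 and 8502 in MS. It was higher in MS, with a log2 difference of -0.19 (SE 0.02, adjusted p = 0.0020 in edgeR), the opposite direction to that of ENSSSCG00000042985 in RYR1.

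On loop scores, 40 genes of the coupling list could be tested, limma called none after adjustment, and 2 had an unadjusted p under 0.05 with the fold named above, which is 5.00% beside 6.24% of all genes. These were CACNA2D1, a voltage sensor subunit (166 and 163 in LW, 33.9 and 55.6 in MS), and PVALB, a calcium buffer (10.8 and 6.26 in LW, no loop called in MS), both higher in LW. The median log2 difference of the list was -0.03. CACNA1S, with 54.9 and 59.8 in LW and 40.5 and 75.1 in MS, differed by -0.22 (SE 0.67).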

How the data were processed

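Breed and replicate of the GRID-seq and H3K27ac BL-HiChIP libraries of longissimus were taken from the titles. For GRID-seq the authors mapped both ends with Bowtie2 (2.2.5 per the labels) and kept RNAs enriched on chromatin. For each RNA they deposited a whole number, taken here from its values as the count of RNA reads. For each 1-kb DNA bin of an RNA the authors deposited a signal from which a background had been subtracted, at 0.02 or more. The lists carry no column names. For BL-HiChIP the authors called loops per library with FitHiChIP on 5-kb bins of Sscrofa11.1, and the value deposited per loop was read as an adjusted p-value (FDR, below 0.01). The 2 loop entries with an FDR of 0, none of them at RYR1, were set to the smallest positive number of the machine. Contact counts were not used here, and the labels also name mm10, which was not used.

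Reads were summed per RefSeq gene and strand and compared with edgeR 4.0.16 (TMM, quasi-likelihood test) over 321 genes listed in all 4 libraries, since an RNA under the listing limit has no value. Loop scores and the signal of RNAs of other genes were quantile-normalized and compared with limma 3.58.1 on the log2(value + 1) scale in R 4.3.3, which understates the change of low genes. Adjustment was by Benjamini-Hochberg over all genes tested. RefSeq gives no strand, so that of RYR1 was taken from its RNAs. The scripts were tested on simulated data. Python 3.11.15 with pandas 2.3.3 was used otherwise.

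The members, the gene lists and the tests were chosen with earlier results of these data known. Named are RYR1 and its RNAs, genes on far anchors of loops in at least 2 libraries, neighbouring genes, the 5 RNAs of other genes with most signal on RYR1 per library, the 5 genes nearest to RYR1 in number of RNAs, and coupling genes listed in all 4 libraries. Other genes under patches and loops of 1 library were named after their values were seen. Alternatives covered normalization, tool (DESeq2 1.42.0), strand, windows, FDR, pseudocount, filters, a replicate block and leaving out each library. Added after seeing the data were the bases listed in all libraries, the RNA of 1 name, the run of Tx numbers and the window around the whole gene. Results for some genes that the rule names are not reported here. Sequences were not used here.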

Additional observations from a re-analysis of the deposited data

How the results depend on the processing

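The RYR1 read difference (0.32 on the log2 scale) stayed toward LW under all 13 alternatives, from 0.01 to 0.52, with adjusted p from 0.0055 to 0.878 in edgeR, limma or DESeq2. It was called under library totals with no TMM (0.36, adjusted p = 0.014 in edgeR) and without MS replicate 2. Leaving out 1 library gave 0.10 to 0.52. Over all genes, calls on reads fell from 270 to 176 with library totals and 146 with limma. The loop score stayed toward LW under 11 alternatives, from 0.07 to 1.55, and the signal of other RNAs stayed toward MS under 9, from -1.53 to -0.41. With the RNAs of RYR1 included the latter was 0, since RYR1 then ranked first in each library and quantile normalization set it level. Neither was called. Without normalization the median log2 difference in loop score over all genes was 0.44 and 1187 genes passed toward LW and 230 toward MS, against 651 and 451. With a pseudocount of 0.1 these were 523 and 866. The local share (91.9%) was 98.8% within 50 kb, 45.0% by bins, 95.7% for the median RNA and 98.4% around the whole gene. Leaving out 1 library gave 90.9% to 93.2%. Loops shared rose from 5 to 9 with anchors 1 bin away, and the mean number of RNAs from 24.5 to 29.25 with unlisted numbers.

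Replicate numbers are shared by the breeds, but their meaning is not stated. Deviations of same-numbered libraries correlated at 0.67 for reads, 0.40 for loop scores and -0.01 for signal, over genes and 2 pairs. With a replicate block the RYR1 differences were 0.33 for reads (SE 0.09, adjusted p = 0.055 in edgeR), 0.78 for loops (SE 0.46, adjusted p = 0.578 in limma) and -0.89 for signal (adjusted p = 0.807 in limma). Over all genes, 271 were then called on reads after adjustment in edgeR. For loop scores and signal limma called 0 genes after adjustment, and 1488 and 2690 passed the thresholds on fold and unadjusted p. The block changed no call at RYR1. The depth in contact pairs was not analysed here, and RNAs below the listing limits have no value.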
